A study of Mus musculus with 12 samples.

Results

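The AMPK subunits, their upstream kinase LKB1 and the folliculin complex were followed here as 10 genes taken by name out of the 54356 genes in the annotation. They were the catalytic subunits Prkaa1 and Prkaa2 (alpha1 and alpha2), the scaffold subunits Prkab1 and Prkab2 (beta1 and beta2), the nucleotide-binding subunits Prkag1 and Prkag2 (gamma1 and gamma2), Stk11 (LKB1), and Flcn (folliculin) with its partners Fnip1 and Fnip2. All 10 passed the filter on low counts. The tissue was interscapular brown fat, the heat-producing depot between the shoulder blades, from wild-type male C57BL/6N mice aged 20 weeks. There were 6 mice labelled ctrl and 6 labelled cold, numbered individually, with 1 polyA library per mouse. The treatment text describes 24 h of single housing at 4 °C. It stands on the ctrl entries too, and was taken to apply to the cold mice. Colony housing is given as 22 to 24 °C, and the final-day housing of ctrl mice is not stated, so cold and single housing cannot be told apart if they differed. The series text counts 3 cold mice and the labels 6. The extraction text speaks of eWAT, while the tissue label is brown fat. All mice of both groups carry the same genotype, and no transgene is involved.

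AMPK is a kinase made of an alpha, a beta and a gamma subunit. It is active when AMP or ADP is bound to gamma and when LKB1 or CAMKK2 has phosphorylated alpha, and it then slows lipid synthesis and favours fuel use. Folliculin and a FNIP partner act at the lysosome as the GTPase-activating protein for RagC and RagD. Through these Rag GTPases, folliculin allows mTORC1 to phosphorylate the transcription factors TFEB and TFE3, which holds them out of the nucleus. FNIP proteins also bind AMPK. In fat, loss of folliculin is known to release TFE3 and to raise Ppargc1a and mitochondrial content.

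Libraries held 16.0 to 31.4 M estimated reads. All 11 brown adipocyte markers were detected in the tissue, and they summed to between 20192 and 28499 CPM (counts scaled to a common library total) in ctrl and between 25575 and 35078 in cold. The 12 skeletal muscle markers summed to 138 to 1797 CPM in ctrl and to 192 to 5675 CPM in cold, with cold 15 highest. The medians of these sums were 935 CPM in ctrl and 969 CPM in cold. Of the 12 markers 0 passed the test, with a wide spread between libraries, although their median log2 fold change was 1.15. Mural cell markers summed to 485 to 545 CPM in ctrl and 320 to 440 CPM in cold, without overlap, and 2 of 4 fell (Rgs5 and Myh11). Of 6 fibroblast and progenitor markers 3 fell (Col1a1, Col1a2 and Lum), with sums of 170 to 264 CPM in ctrl and 139 to 227 CPM in cold. Of 7 endothelial markers 1 rose and 2 fell, of 8 macrophage markers 1 rose, and of 11 brown adipocyte markers 4 rose and 1 fell. None of the 4 white adipocyte, 5 Schwann cell and 4 erythrocyte markers passed, and the sums of these lists overlapped between groups. For scale, 16.2% of all genes tested rose and 15.4% fell by the same test, 31.6% in all. The groups did not overlap in 16.3% of single genes. The part of these cell types in the results that follow was not tested, apart from the skeletal muscle covariate. In whole tissue, a lower level can mean fewer cells of a type or less RNA per cell, and these cannot be told apart.

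The sequences before the transcription starts of Flcn, Fnip1 and Prkag2 are shown, Flcn and Fnip1 because theirs hold a marked motif and Prkag2 because it was read from more than 1 start. The windows of Prkaa1, Prkaa2 and Prkag1, which also rose in cold, hold neither marked motif and are not shown. Each sequence shown is the 250 bases before a RefSeq start (GRCm38.p6), written 5′ to 3′ on the gene's own strand. Capitals mark CACGTG, an E-box sequence that TFEB and TFE3 can bind, in Fnip1, and the cAMP response element TGACGTCA in Flcn. Binding at these sites was not tested. The windows of Prkag2 hold neither and have no capitals.
Flcn, chr11:59810040-59810289, minus strand: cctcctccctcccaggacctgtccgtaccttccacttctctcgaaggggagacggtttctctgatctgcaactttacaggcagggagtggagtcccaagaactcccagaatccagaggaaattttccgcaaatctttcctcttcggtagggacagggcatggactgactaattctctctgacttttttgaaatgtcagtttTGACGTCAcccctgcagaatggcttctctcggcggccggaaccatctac
Fnip1, chr11:54437929-54438178, plus strand: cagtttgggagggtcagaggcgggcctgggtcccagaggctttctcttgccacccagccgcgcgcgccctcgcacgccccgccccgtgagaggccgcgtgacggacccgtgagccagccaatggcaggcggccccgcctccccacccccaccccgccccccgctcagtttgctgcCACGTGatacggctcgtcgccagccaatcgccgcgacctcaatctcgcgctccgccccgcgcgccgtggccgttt
Prkag2, start of Prkag2-201, chr5:25100643-25100892, minus strand: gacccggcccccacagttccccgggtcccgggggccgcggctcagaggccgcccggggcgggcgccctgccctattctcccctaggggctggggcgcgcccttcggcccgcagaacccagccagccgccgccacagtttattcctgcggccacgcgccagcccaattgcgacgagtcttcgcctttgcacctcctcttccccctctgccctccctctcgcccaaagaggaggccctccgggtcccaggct
Prkag2, start of Prkag2-202, chr5:24995754-24996003, minus strand: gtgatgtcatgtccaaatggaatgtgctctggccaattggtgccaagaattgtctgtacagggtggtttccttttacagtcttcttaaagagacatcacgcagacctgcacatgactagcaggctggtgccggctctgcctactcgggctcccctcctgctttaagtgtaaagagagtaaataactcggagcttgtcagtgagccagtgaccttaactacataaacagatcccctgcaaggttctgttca

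The cAMP response element of Flcn lies at -49 to -42 and the E-box of Fnip1 at -75 to -70, with the start as 0. On both strands of the 300-base windows (250 bases before and 50 after each start), TGACGTCA was found in 1 of the 12 windows of these genes and in 1.79% of 32851 windows of all genes. CACGTG was found in 1 of 12 and in 7.15% of all. The GC box GGGCGG was in 9 of 12 against 35.7% of all, CCAAT in 5 of 12 against 37.4%, and the estrogen-related receptor site TCAAGGTCA in 0 of 12 against 0.423%. No motif contains another. A match is a description of the letters only.

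Cold was compared with ctrl to ask which of these genes differ in level after a day in the cold. The catalytic and gamma subunits of AMPK were higher in cold, as were Flcn and Fnip1, while the beta subunits, Stk11 and Fnip2 did not pass the test. In all, 6 of the 10 genes rose and 0 fell at an adjusted p under 0.05 (edgeR, quasi-likelihood F test, p adjusted by Benjamini-Hochberg over 13876 genes). Across all genes tested 16.2% rose and 15.4% fell by the same rule, 31.6% in all (with library totals as scaling, 2895 rose and 1409 fell, against 2246 and 2134). At an unadjusted p under 0.05, 1 of the 10 was lower (Fnip2), and the count of falls was 0 with DESeq2 and with limma-voom too. The median log2 fold change of the 10 genes was 0.29, against -0.01 over all genes. The ranges of ctrl and cold did not overlap for 3 of the 10 (Prkaa2, Prkag2 and Flcn), which happened in 16.3% of all genes.

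**Figure D1:**
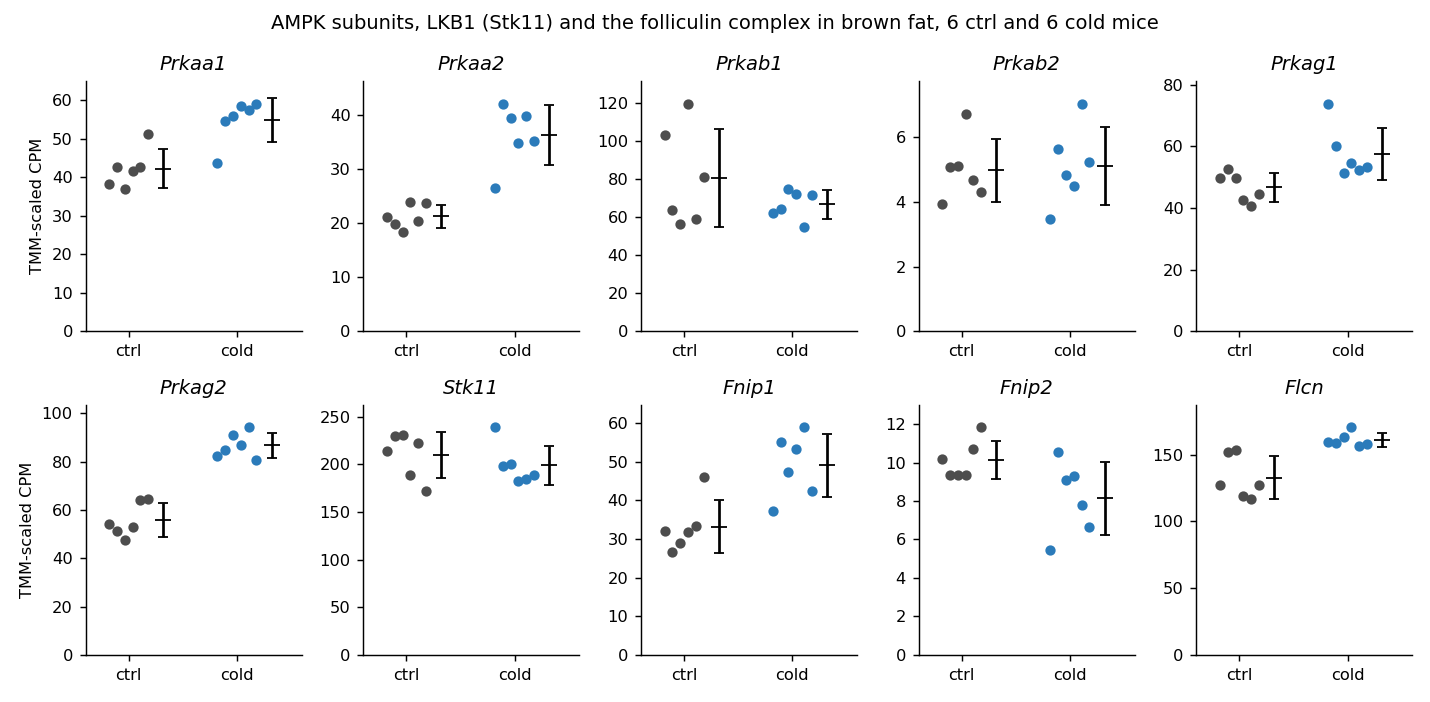
TMM-scaled CPM (vertical axis, from 0) of the 10 genes in each of 6 ctrl (grey) and 6 cold (blue) libraries, with the mean and SD as a bar beside the points. Cold points lie wholly above ctrl points for Prkaa2, Prkag2 and Flcn, and the groups overlap for the other genes.

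Prkaa2 encodes alpha2, the catalytic subunit that is prominent in muscle. It is on chromosome 4 at 105029874 to 105109890 (GRCm38, GENCODE M21, as are the gene coordinates that follow). Its level ran from 18.4 to 24.0 CPM in ctrl (median 20.9) and from 26.5 to 42.2 CPM in cold (median 37.4). All 6 cold libraries were above every ctrl library, and cold 4 was the lowest of them. The means were 21.3 ± 2.19 and 36.4 ± 5.60 CPM (SD, n = 6 each), which is 0.77 ± 0.11 on a log2 scale (SE) and the largest change among the 10 genes (edgeR adjusted p = 4.31e-05). With the mean level of skeletal muscle markers as a covariate the log2 fold change was 0.75 (edgeR adjusted p = 8.95e-05).

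Prkaa1 encodes alpha1, the other catalytic subunit (chromosome 15, 5143861 to 5181899). It ran from 36.8 to 51.3 CPM in ctrl (median 42.1) and from 43.6 to 59.0 CPM in cold (median 56.7). Of the 6 cold libraries 5 were above the highest ctrl library, and cold 4, at 43.6 CPM, was not. The means were 42.2 ± 5.04 and 54.8 ± 5.74 CPM (SD, n = 6 each), which is 0.38 ± 0.09 on a log2 scale (SE), edgeR adjusted p = 4.69e-03.

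Prkag2 encodes gamma2, a gamma subunit with a long amino-terminal extension, and had the smallest p of the 10 genes (chromosome 5, 24862744 to 25100642). It ran from 47.5 to 64.5 CPM in ctrl (median 53.5) and from 80.7 to 94.1 CPM in cold (median 85.9). The lowest cold library stood clear of ctrl 10 and ctrl 14, the highest ctrl libraries. The means were 55.7 ± 7.03 and 86.7 ± 5.15 CPM (SD, n = 6 each), which is 0.64 ± 0.08 on a log2 scale (SE), edgeR adjusted p = 2.35e-05. The noncoding RNA genes annotated across Prkag2 on the other strand had 0 reads in every library.

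Prkag1 encodes gamma1, the widespread gamma subunit (chromosome 15, 98812797 to 98831521). It ran from 40.6 to 52.7 CPM in ctrl (median 47.0) and from 51.4 to 73.8 CPM in cold (median 53.9). Of the 6 cold libraries 4 were above the highest ctrl library, and cold 4 was the highest of all. The means were 46.6 ± 4.77 and 57.6 ± 8.50 CPM (SD, n = 6 each), which is 0.30 ± 0.10 on a log2 scale (SE), edgeR adjusted p = 0.0238. The call for Prkag1 was lost without ctrl 9 or ctrl 10 (adjusted p = 0.0527 and 0.0589, edgeR), just missed with an effective length offset, and was lost with protein-coding transcripts alone (0.0536).

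Prkag3, the gamma subunit of skeletal muscle, was near 0, with 4.02 to 10.8 estimated reads per library in ctrl and 1.01 to 16.7 in cold, and did not pass the filter. These reads are not scaled to library size. Cold 4, the largest library at 31.4 M reads, had the most, with skeletal muscle markers summing to 520 CPM. Cold 15 followed with 14.9 reads and had the highest summed skeletal muscle markers. Cold 11, second in these markers at 2784 CPM, had 4.02 reads of Prkag3.

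Neither beta subunit passed the test. Prkab1 (beta1, chromosome 5, 116013586 to 116024508) ran from 56.3 to 119 CPM in ctrl (median 72.4) and from 54.7 to 74.9 CPM in cold (median 68.0). Ctrl 2 and ctrl 9 held the highest values, ctrl 14, at 81.1 CPM, was also above every cold library, and the remaining 3 ctrl libraries were within the range of cold. Its log2 fold change was -0.27 ± 0.18 (SE; edgeR adjusted p = 0.275). Prkab2 (beta2, chromosome 3, 97658193 to 97673812) was scarce, with ctrl at 4.98 ± 0.97 and cold at 5.12 ± 1.20 CPM (SD, n = 6 each), from 64 to 161 reads per library. Its log2 fold change was 0.04 ± 0.17 (SE; edgeR adjusted p = 0.895).

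Stk11, which encodes the AMPK kinase LKB1 (chromosome 10, 80115803 to 80130682), ran from 172 to 231 CPM in ctrl (median 218) and from 182 to 239 CPM in cold (median 194). The groups overlapped almost throughout, with cold 4 the highest library and the other 5 cold libraries between 182 and 200.5 CPM. The log2 fold change was -0.08 ± 0.09 (SE; edgeR adjusted p = 0.573). Stk11 overlaps Cbarp on the opposite strand, which rose (log2 fold change 0.97, edgeR adjusted p = 3.31e-04). Cbarp had 36 to 168 reads per library and Stk11 2640 to 7392. Whether reads of one gene were counted for the other was not tested.

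Flcn encodes folliculin (chromosome 11, 59791408 to 59810016). It ran from 117 to 154 CPM in ctrl (median 127) and from 156 to 170 CPM in cold (median 159). Every cold library was above every ctrl library, though ctrl 5 and ctrl 6, at 152 and 154 CPM, were close to the lowest cold value. The means were 133 ± 16.2 and 161 ± 5.12 CPM (SD, n = 6 each), which is 0.28 ± 0.08 on a log2 scale (SE), edgeR adjusted p = 0.0135.

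Fnip1 (chromosome 11, 54438199 to 54518235) encodes a folliculin partner that AMPK is known to phosphorylate. It ran from 26.7 to 46.2 CPM in ctrl (median 31.97) and from 37.3 to 58.9 CPM in cold (median 50.3). Of the 6 cold libraries 4 were above the highest ctrl library. Ctrl 14, at 46.2 CPM, stood above the other ctrl libraries and cold 4 was the lowest cold library. The means were 33.2 ± 6.83 and 49.1 ± 8.19 CPM (SD, n = 6 each), which is 0.57 ± 0.13 on a log2 scale (SE), edgeR adjusted p = 3.95e-03.

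Fnip2 (chromosome 3, 79455974 to 79567796), the other partner, leaned the opposite way without passing the test. It ran from 9.34 to 11.8 CPM in ctrl (median 9.76) and from 5.43 to 10.5 CPM in cold (median 8.44), from 114 to 236 reads per library. The log2 fold change was -0.32 ± 0.14 (SE; edgeR adjusted p = 0.103). Without cold 7, its highest cold library, the value was -0.40 (edgeR adjusted p = 0.0436).

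**Figure D2:**
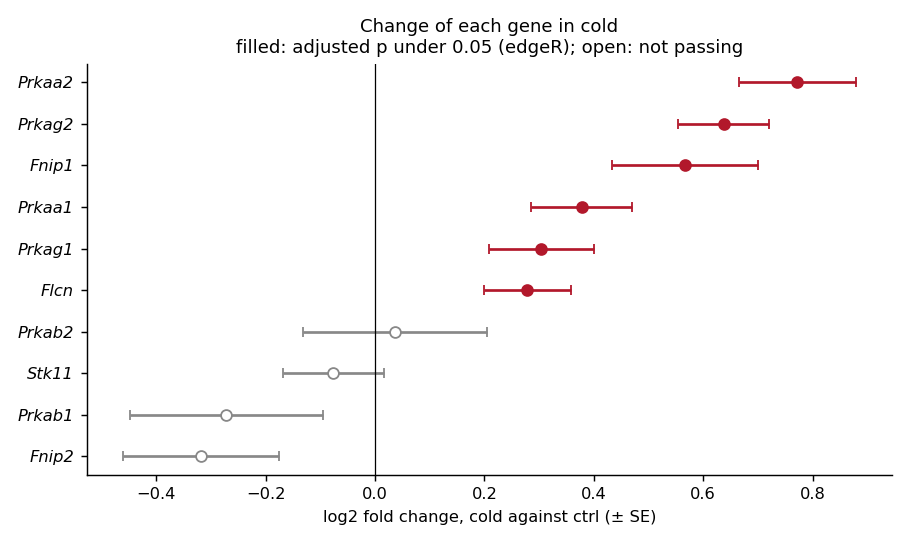
Log2 fold change of cold against ctrl (horizontal axis) with its SE for the 10 genes, filled where the adjusted p was under 0.05. Prkaa2 (0.77) and Prkag2 (0.64) are at the top, the 6 filled genes are all above 0, and Fnip2 (-0.32) is lowest.

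The labels name no batch, and the comparison was repeated within low and high mouse numbers. Within numbers of 9 or higher (3 ctrl and 4 cold) 5 of the 6 calls held and Fnip1 did not (log2 fold change 0.44, edgeR adjusted p = 0.0648). Within numbers of 7 or lower (3 ctrl and 2 cold) Prkaa2, Prkag2 and Fnip1 were called, while Prkaa1, Prkag1 and Flcn had log2 fold changes of 0.33, 0.41 and 0.15 (adjusted p = 0.23, 0.124 and 0.614, edgeR). With the number class as a covariate all 6 were called, as they were without ctrl 2 and cold 15 and with the skeletal muscle covariate.

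Paralogs were then compared within a library as shares of their pair, on the TPM scale, which is per transcript length. Alpha2 gained on alpha1. The Prkaa2 share of Prkaa1 plus Prkaa2 ran from 21.5% to 25.6% in ctrl and from 26.1% to 31.4% in cold, with no overlap. The means were 23.1 ± 1.62% and 28.1 ± 2.28% (SD, n = 6 each), a difference of 5.06 points (exact two-sided permutation p = 2.16e-03, the smallest that 924 assignments allow; adjusted over 4 pairs 4.33e-03).

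Fnip2 lost ground to Fnip1. The Fnip2 share of Fnip1 plus Fnip2 ran from 14.8% to 21.7% in ctrl and from 7.75% to 13.4% in cold, again with no overlap. The means were 18.4 ± 2.56% and 11.2 ± 1.95% (SD, n = 6 each), a difference of -7.20 points (exact two-sided permutation p = 2.16e-03, adjusted 4.33e-03). The difference in this share between ctrl and cold was thus larger than the spread between mice, although the level of Fnip2 alone did not pass. A rise of Fnip1 lowers the share too, so the share does not show a fall of Fnip2 by itself.

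For the beta and gamma pairs the shares did not pass. Prkab2 made up 2.28 ± 0.68% of the beta pair in ctrl and 3.04 ± 0.83% in cold (SD, n = 6 each; p = 0.106 by the exact permutation test, adjusted 0.141). Prkag2 made up 44.7 ± 5.82% of the gamma pair in ctrl and 48.2 ± 3.42% in cold (exact two-sided permutation p = 0.223, adjusted 0.223, n = 6 each). With protein-coding transcripts alone the difference in the Prkag2 share was 5.27 points, with an adjusted p of 0.0346 by the same exact permutation test.

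**Figure D3:**
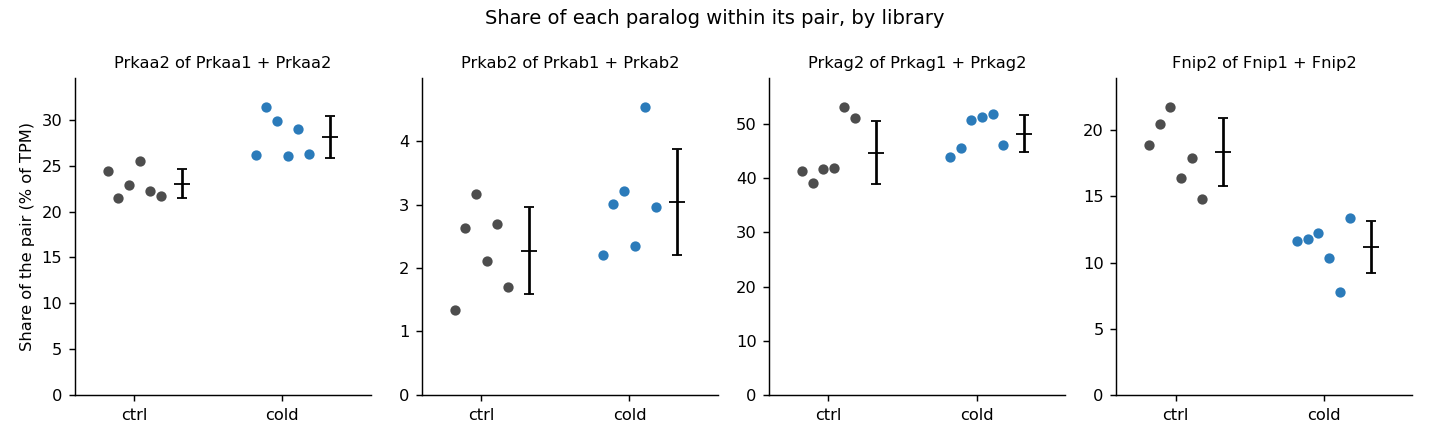
Share of the named paralog in the TPM of its pair (vertical axis, percent, from 0) in 6 ctrl (grey) and 6 cold (blue) libraries, with mean and SD beside the points. The groups separate for Prkaa2 (23.1% and 28.1%) and for Fnip2 (18.4% and 11.2%), and overlap for Prkab2 and Prkag2.

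Levels of different genes were set side by side as CPM per kilobase of effective length. In ctrl the order was Stk11 (110 ± 16.3), Prkab1 (53.0 ± 17.7), Flcn (42.6 ± 5.38), Prkag1 (31.3 ± 3.13), Prkag2 (25.5 ± 4.68), Prkaa1 (11.9 ± 1.55), Fnip1 (7.42 ± 1.59), Prkaa2 (3.56 ± 0.43), Fnip2 (1.64 ± 0.14) and Prkab2 (1.16 ± 0.31; SD, n = 6). Neighbours whose ranges overlapped were Prkab1 and Flcn, Prkag1 and Prkag2, Prkaa1 and Fnip1, and Fnip2 and Prkab2. In cold the order was the same except that Flcn (52.4 ± 2.58) stood above Prkab1 (41.1 ± 6.14), with no overlap between them. In cold Prkab1 overlapped Prkag1, and the other overlapping neighbours were the same as in ctrl, without Prkab1 and Flcn.

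In brown fat the main messages per length were alpha1, beta1 and both gammas, with alpha2 as the smaller catalytic message and little beta2. Summed per length, the catalytic messages stood at 15.5 ± 1.88 in ctrl and 22.3 ± 2.96 in cold, the beta messages at 54.2 ± 17.9 and 42.4 ± 6.25, and the gamma messages at 56.8 ± 4.38 and 73.9 ± 6.57 (CPM per kilobase, SD, n = 6 each). Ranges of the gamma sum did not overlap (49.5 to 62.3 and 67.6 to 86.0), and those of the alpha and beta sums did. Short transcripts weigh heavily on this scale: the 651-base retained-intron transcript Prkag2-207 had 30.6% of Prkag2 TPM in ctrl but 3.56 CPM of reads.

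Of 58 annotated transcripts of the 10 genes, 31 passed the filter and 4 rose, with none lower at an adjusted p under 0.05 (edgeR over 30345 transcripts, of which 6.21% rose and 4.06% fell, 10.3% in all). These were Prkaa2-201, the sole transcript of Prkaa2 (0.79 ± 0.11 on the log2 scale, adjusted p = 7.93e-04), Prkag2-201 (0.71 ± 0.15, adjusted p = 0.0104), Prkag2-202 (1.25 ± 0.28, adjusted p = 0.0130) and Fnip1-201 (0.59 ± 0.15, adjusted p = 0.0230; all SE, edgeR). The call for Fnip1-201 was lost when any of ctrl 2, 5, 6 and 9 or cold 7, 12 and 15 was left out (adjusted p = 0.0526 to 0.0581, edgeR). Prkab1-205, a retained-intron transcript, was the transcript lower at an unadjusted p under 0.05 (0.0462, edgeR; adjusted 0.222).

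Prkag2-201 begins at base 25100642, the far end of the gene, and carried 52.0 ± 9.88% of Prkag2 TPM in ctrl and 60.5 ± 10.2% in cold (SD, n = 6 each). It ran from 29.0 to 55.1 CPM in ctrl and from 54.4 to 86.2 CPM in cold, where only cold 4 fell inside the ctrl range. Prkag2-202 begins at base 24995753 and is minor, with ctrl at 1.64 ± 0.65 and cold at 3.92 ± 0.73 CPM (SD, n = 6 each), with no overlap between groups. The upstream sequences printed above belong to these starts and differ in base composition, with 73.2% and 48.4% G and C. Prkag2-203, from a start at base 24908469, had from 0% to 27.2% of Prkag2 TPM in ctrl and from 0% to 28.8% in cold and did not pass the filter. The window near that start, not shown above, had 77.2% G and C.

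In Flcn the most abundant transcript was Flcn-205, annotated as a retained intron, with ctrl at 64.8 ± 11.2 and cold at 66.1 ± 2.46 CPM (SD, n = 6 each; log2 fold change 0.03 ± 0.10 SE, edgeR adjusted p = 0.939). The coding transcripts Flcn-202 and Flcn-203 had log2 fold changes of 0.53 ± 0.20 and 0.52 ± 0.15 (SE; adjusted p = 0.137 and 0.0530, edgeR). With coding transcripts alone summed per gene, a choice made after seeing the data, Flcn ran from 65.8 to 87.4 CPM in ctrl and from 100.2 to 112.5 CPM in cold. That log2 fold change was 0.48 ± 0.08 (SE; adjusted p = 2.80e-04, edgeR over 12169 genes, of which 15.1% rose and 29.1% changed either way), against 0.28 for all transcripts. Flcn-205 held 43.2 ± 4.77% of Flcn TPM in ctrl and 35.3 ± 1.27% in cold (SD, n = 6 each), and the ranges overlapped.

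Proportions of transcripts did not pass the usage test for any of the 5 genes that could be tested (1.23% of 7233 genes did, edgeR's diffSpliceDGE). Flcn had the smallest p, 0.0400 unadjusted and 0.423 adjusted (diffSpliceDGE over all mice), and it was the only gene of the 5 with an unadjusted p under 0.05. Leading transcripts of the other genes were Stk11-201 (46.1% of Stk11 TPM in ctrl), Prkab1-201 (41.2%), Prkab2-201 (87.3%), Prkag1-201 (95.9%), Fnip2-203 (82.8%) and Fnip1-201 (99.5%). The 2 transcripts of Prkaa1 are close in length, at 4655 and 4618 bases, and the share of Prkaa1-202 swung from 20.6% to 100% among cold libraries, so the split between them is poorly fixed.

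**Figure D4:**
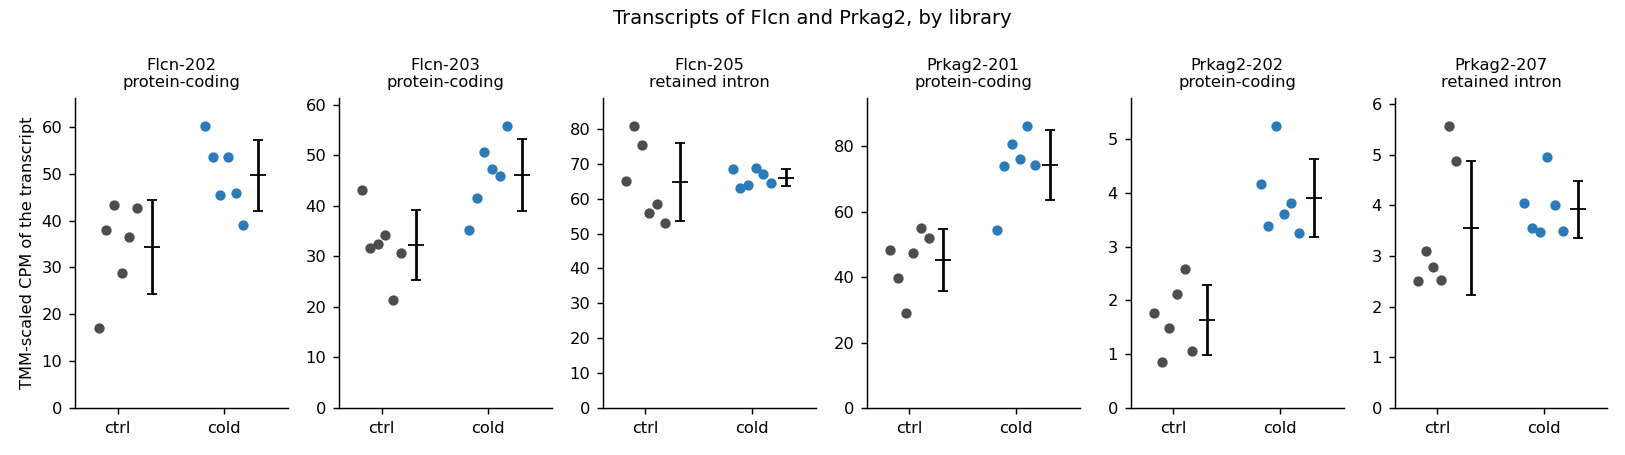
TMM-scaled CPM of single transcripts (vertical axes, from 0) of Flcn and Prkag2 in 6 ctrl (grey) and 6 cold (blue) libraries, with mean and SD beside the points. Flcn-205 is level at 64.8 and 66.1 CPM on average, and Prkag2-202 is the transcript shown here whose groups do not overlap.

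Genes that work with this system were taken from 8 lists, chosen with earlier results of these data known, and are described by counts. The share of tested genes called in either direction was 71.4% among LKB1 partners and upstream kinases, 33.3% among AMPK-related kinases, 55% among AMPK substrates, 50% among Rag and Ragulator genes, 25% among genes of mTORC1 and its regulators, 0% among MiT/TFE factors and 43.5% among TFEB and TFE3 targets, against 31.6% of all genes. The AMPK-related kinases were thus near the share of all genes and the mTORC1 list below it. Among 7 LKB1 partners and other kinases upstream of AMPK, 3 rose and 2 fell (median log2 fold change 0.25). Cab39, the scaffold MO25 that activates LKB1, rose from 99.8 ± 6.03 to 138 ± 14.3 CPM (SD, n = 6 each; log2 fold change 0.46 ± 0.08 SE, edgeR adjusted p = 2.47e-04). Camkk2, the calcium-dependent AMPK kinase, fell from 30.4 ± 3.96 to 21.8 ± 1.11 CPM (-0.48 ± 0.09, edgeR adjusted p = 5.35e-04), with no overlap. The remaining calls, named after their values were seen, were rises of Cab39l (0.37) and Stradb (0.25) and a fall of the pseudokinase gene Strada (-0.34). The call held in 26 of 27 alternatives for Cab39l, in 23 of 27 for Stradb and in only 16 of 27 for Strada.

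Of 12 AMPK-related kinases, which LKB1 also activates, 4 rose and 0 fell. At an unadjusted p under 0.05 (edgeR) 2 were lower (Brsk1 and Mark4, named after their values were seen), and falls called numbered 0 with DESeq2, 1 with limma-voom, 1 with the stricter filter, 1 without cold 11 or cold 12, and 2 with the mouse number covariate. Without ctrl 2 and cold 15 there were 2 rises. Sik3, a salt-inducible kinase, rose from 59.7 ± 8.42 to 93.2 ± 14.4 CPM (log2 fold change 0.64 ± 0.11 SE, edgeR adjusted p = 3.70e-04) and Mark3, a microtubule-affinity kinase, by 0.23 ± 0.06 (edgeR adjusted p = 4.98e-03).

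Of 20 AMPK substrates 7 rose and 4 fell, with a median of 0.02. The largest call was a fall of Acaca, an acetyl-CoA carboxylase and the classic AMPK substrate of lipid synthesis (-1.50 ± 0.16 on the log2 scale, edgeR adjusted p = 8.16e-06). Acacb, the other acetyl-CoA carboxylase of the list, did not pass and was named after its value was seen. It averaged 2383 CPM in ctrl and 2286 CPM in cold (-0.06 ± 0.12 on the log2 scale, edgeR adjusted p = 0.754). Mlxipl, the lipogenic transcription factor ChREBP, fell by 0.66 on the log2 scale, with an edgeR adjusted p of 8.07e-04. With ctrl 2 and cold 15 left out, the substrates counted 3 rises and 4 falls.

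Of 10 Rag GTPase and Ragulator genes, the lysosomal platform on which folliculin acts, 3 rose and 2 fell. Rragb fell from 2.20 ± 0.44 to 1.25 ± 0.16 CPM (-0.81 ± 0.19, edgeR adjusted p = 4.06e-03) and Lamtor3, a Ragulator subunit, rose by 0.27 ± 0.07 (edgeR adjusted p = 0.0111). The direct substrates of folliculin both rose and were named after their values were seen. Rragc went from 119 ± 15.5 to 147 ± 6.32 CPM (SD, n = 6 each; log2 fold change 0.30 ± 0.08 SE, edgeR adjusted p = 0.0120). Rragd went from 2.89 ± 0.99 to 7.39 ± 4.59 CPM (1.35 ± 0.38, edgeR adjusted p = 0.0173), with a wide spread in cold. The call held in 26 of 27 alternatives for Rragc and in 24 of 27 for Rragd. Among 20 genes of mTORC1, TSC, GATOR and the sestrins 3 rose and 2 fell, and 4 fell with the mouse number covariate. They included Rptor, the mTORC1 subunit raptor (0.42 ± 0.09, edgeR adjusted p = 3.01e-03), and Nprl2 of GATOR1 (-0.34 ± 0.09, edgeR adjusted p = 5.96e-03). With ctrl 2 and cold 15 left out, the LKB1 partner, Rag and mTORC1 lists each counted 3 rises and 1 fall.

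The transcription factors downstream of folliculin did not pass: Tfe3 was at 45.4 ± 1.79 and 43.5 ± 3.85 CPM, Tfeb at 27.0 ± 3.21 and 28.2 ± 2.88 CPM, and Mitf at 4.28 ± 1.11 and 4.56 ± 0.33 CPM (SD, n = 6 each; adjusted p = 0.57, 0.649 and 0.69, edgeR). None of them had an unadjusted p under 0.05 (edgeR), and DESeq2 and limma-voom called 0. Tfec did not pass the filter. Of 23 listed targets of TFEB and TFE3, lysosomal and autophagy genes apart from Ppargc1a, 8 rose and 2 fell, with a median of 0.16. Ppargc1a, a mitochondrial coactivator and not a lysosomal gene, led with 2.55 ± 0.16 on the log2 scale (edgeR adjusted p = 3.08e-08). Whether TFEB or TFE3 had a part in its rise was not tested. Lamp1, a lysosomal membrane protein, rose from 573 ± 54.7 to 998 ± 61.1 CPM (0.80 ± 0.08, edgeR adjusted p = 1.85e-06). The falls were Sgsh, a lysosomal sulfatase (-0.58), and Sqstm1, the autophagy receptor p62 (-0.35), named after their values were seen. Without ctrl 2 and cold 15 this list counted 5 rises and 2 falls.

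**Figure D5:**
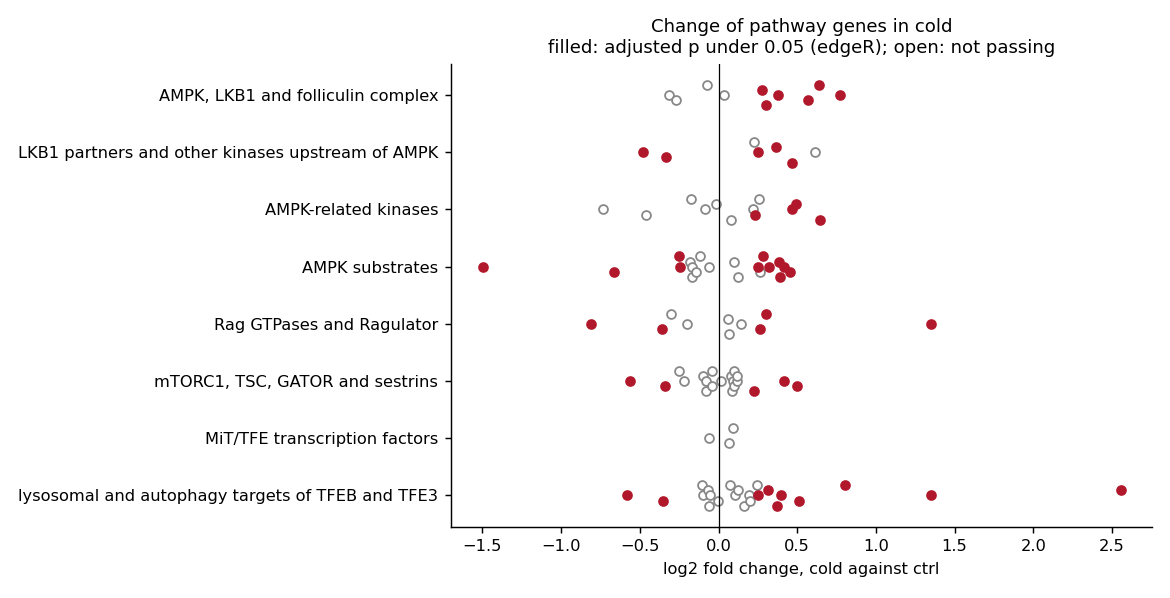
Log2 fold change of cold against ctrl (horizontal axis) for each tested gene of the lists (rows), filled where the adjusted p was under 0.05; vertical scatter within a row has no meaning. Ppargc1a (2.55) is farthest right and Acaca (-1.50) farthest left, and the 3 MiT/TFE factors are open and near 0.

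The genes whose profile over the 12 libraries was most like that of a member were found by the mean absolute difference of standardised log2 CPM, in SD units, among 13875 other genes. For Prkag2 they were Tppp (0.17), Pdia2 (0.178) and Lrrc8d (0.178). For Prkaa2 they were Csnk1a1 (0.136), Sec31a (0.157) and Dtx3l (0.164). For Fnip1 the nearest genes were less close, Snx27 (0.255), Usp25 (0.266) and Uba1 (0.27). All 9 rose in cold, which follows from choosing them for their likeness to genes that rose.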

How the data were processed

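Brown fat RNA of 12 mice was polyA-selected and read in pairs of 50 nt from libraries that keep strand, per the labels' protocols. Salmon, cutadapt, bcl2fastq and GRCm38 appear in the submitters' processing notes with no version. The strand setting and annotation are not given in the sources used here. Per the file headers, the authors deposited estimated counts and TPM for 140658 transcripts per library, with length and effective length.

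Transcripts were matched by identifier to GENCODE M21 (140137 matched), estimated counts were summed per gene and rounded, and genes passing filterByExpr (minimum count 10) were scaled by TMM. The 2 groups were compared in a robust edgeR quasi-likelihood model without covariates, and p-values were adjusted by Benjamini-Hochberg with a threshold of 0.05. Transcripts were tested likewise and usage with diffSpliceDGE. CPM are TMM-scaled. Effective length per gene was weighted by TPM. Shares used deposited TPM and exact permutation tests. TPM levels were not compared between libraries, because transcripts under 50 nt effective length held 55.2% of TPM in ctrl 2. Mice are separate animals, so each p-value sets a difference between groups against the spread between mice.

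The genes named by rule were the 10 members, the 2 genes of smallest p per list, the leading and called transcripts, and the 3 genes most like each of the 3 members of smallest p. Other list members, the markers and overlapping genes were named outside this rule, after their values were seen. The members and lists were chosen with earlier results of these data known. On simulated counts (13722 genes) the gene test found 55.2%, 74.6% and 90.9% of 1.5-fold, 2-fold and 4-fold changes. At transcript level (27842 transcripts) it found 4.48%, 23.9% and 47.0%, so changes of single transcripts are often missed. Alternatives were other scaling (RLE, library totals), DESeq2, limma-voom, other filters, a length offset, genes removed, covariates and mice left out. Software was R 4.3.3, edgeR 4.0.16, limma 3.58.1, DESeq2 1.42.0, Python 3.11.15, SciPy 1.17.1, NumPy 2.4.6, matplotlib 3.10.9 and pandas 2.3.3.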

Additional observations from a re-analysis of the deposited data

Results flagged for a closer look

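Single libraries stood apart from their group in 3 of 28 groups of 6 values examined (the 10 genes and 4 shares, in ctrl and in cold), by the gap to the nearest library as a share of the range. Chance sets apart about 1 in 20. Prkaa1 in cold 4 was 43.6 CPM, with the other cold libraries at 54.7 to 59.0. Stk11 in cold 4 was 239 CPM, with the others at 182 to 200.5. Fnip1 in ctrl 14 was 46.2 CPM, with the other ctrl libraries at 26.7 to 33.4. Without cold 4 the log2 fold change of Prkaa1 was 0.44 and that of Stk11 -0.13, and without ctrl 14 that of Fnip1 was 0.68.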

How the results depend on the processing

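No paired analysis was possible because the mouse numbers differ between ctrl and cold. Over 27 alternatives the log2 fold changes ran from 0.71 to 0.87 for Prkaa2 and from 0.48 to 0.73 for Prkag2, and both were called in every one of them. The 6 rises among the 10 genes became 5 with the effective length offset, with protein-coding transcripts alone and within mouse numbers of 9 or higher, and 3 within numbers of 7 or lower, where all genes counted 600 higher and 392 lower instead of 2246 and 2134. That set has fewer mice (3 ctrl and 2 cold). Library totals gave 2895 higher and 1409 lower and moved the median of all genes from -0.01 to 0.08, with the same 6 rises by count. With 1 mouse left out, the rises were 5 to 6 and the falls 0 to 1, the 1 being Fnip2 without cold 7. Genes higher ran from 2023 to 2605 and lower from 1836 to 2481. Usage calls numbered 89, 14 with Simes, 197 with limma diffSplice and 62 to 211 with 1 mouse left out, the 211 without cold 4, and none was among these genes. Within numbers of 9 or higher the Prkaa2 share differed by 4.64 points and the Fnip2 share by -5.46 (adjusted p = 0.114 each, exact permutation); 35 assignments allow no raw p under 0.0571. The Prkag2 share passed with protein-coding transcripts (5.27 points). The causes were not tested. Prkab2 and Fnip2 had the fewest reads of the 10 genes, at 64 to 161 and 114 to 236 per library.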
